A study of Mus musculus with 212 samples.

Results

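The change in transcript levels from the first to the second day of sampling at 32 °C was measured in mouse skin fibroblasts, WT or Bmal1-/-. Libraries at this temperature with time labels CT24 to CT46 (day 2) were set against those with CT00 to CT22 (day 1), and each pair of libraries lay 24 h apart at the same time-of-day label. These were 48 of the 212 libraries of the series: 12 per genotype and day, taken every 2 h with 1 library per time point. All cells were of the C57BL/6 strain. Every group had been grown to confluence in six-well plates, treated with 100 nM dexamethasone for 15 min to synchronise the cells, washed and moved to HEPES-buffered medium with serum in darkness. Harvest began 48 h after dexamethasone, by a design text that names 37 °C alone. The labels give n = 3 per time point and genotype, but not what was counted or how many mice or cell preparations were used, so each genotype's course may be of 1 preparation. The 12 pairs therefore measure the spread between time points of 1 course. A difference between the courses of the genotypes cannot be told apart from a difference between preparations.

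Fibroblasts in culture carry a cell-autonomous circadian clock. In it the proteins CLOCK and BMAL1 drive the Per, Cry and Nr1d genes, whose products repress that drive or the Arntl gene that encodes BMAL1. A glucocorticoid pulse aligns the clocks of the cells in a dish. Pairing at equal time of day cancels a 24 h rhythm of constant amplitude and leaves the slower drift between days, which is the question here.

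Levels are FPKM, the fragments counted per length of transcript and per mapped read. Changes are given on the log2(FPKM + 1) scale, which understates the change of genes near or under 1 FPKM. Of 47631 genes in the deposited table, 13048 averaged 1 FPKM or more across these 48 and were tested with limma, with the pair as a block and both genotypes in the same fit. A gene passed the test at an adjusted p under 0.05, and was called changed where the change was also at least 1.5-fold.

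The labelled cell type held: all 12 fibroblast markers examined were above a mean of 1 FPKM, and their summed level lay between 10731 and 16191 FPKM. The gene-level value of Arntl did not separate the genotypes (3.51 to 8.01 FPKM in WT, 6.14 to 7.70 in Bmal1-/-). The labels do not say which part of the gene was deleted, so this value checks nothing. The genotypes separated fully in Cdkn1a, a cell cycle inhibitor (2.18 to 4.49 FPKM against 121 to 150 FPKM). Estimated depth ran from 24.4 to 32.0 M reads per library and did not differ detectably between days in either genotype (exact sign-flip permutation tests, adjusted p = 0.737 and 0.283 over 24 tests). The number of genes above 1 FPKM fell in WT from 12667 ± 59.9 to 12577 ± 42.6 (SD, n = 12, higher in 1 of 12 pairs, exact adjusted p = 0.00586). In Bmal1-/- it was 12488 ± 39.4 and 12502 ± 55.3 (higher in 11 of 12 pairs, exact adjusted p = 0.476). Its part in the WT changes was not tested. The predicted gene Gm26377 took 18.8 to 34.2% of the summed FPKM of a library at 32 °C. In Bmal1-/- its share was 31.3% ± 1.99 on day 1 and 28.01% ± 2.0 on day 2 (SD, n = 12, exact adjusted p = 0.0234).

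The drift was broad and mostly small, and larger in WT. In WT, 4413 genes (33.8% of those tested) passed the test, 2173 higher and 2240 lower on day 2. Of these, 130 (0.996%) were called changed, 70 higher (0.536%) and 60 lower (0.46%). In Bmal1-/-, 2668 genes (20.4%) passed and 24 (0.184%) were called, 16 higher (0.123%) and 8 lower (0.0613%). The median change over all tested genes was -0.003 in WT and 0.002 in Bmal1-/-, a value that the scaling of FPKM within each library largely sets. The 1449 genes that passed in both genotypes were 32.8% of the WT genes and 54.3% of the Bmal1-/- genes, and 1246 of them (86.0%) had the same sign. Only 6 genes were called in both. When the change itself was compared between genotypes, 2072 genes (15.9%) passed and 87 (0.667%) were called, 39 with a more positive (0.299%) and 48 with a more negative (0.368%) change in Bmal1-/-. Full separation of the 12 day 2 libraries from the 12 day 1 libraries was seen for 130 genes (0.996%) in WT and 71 (0.544%) in Bmal1-/-.

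**Figure D1:**
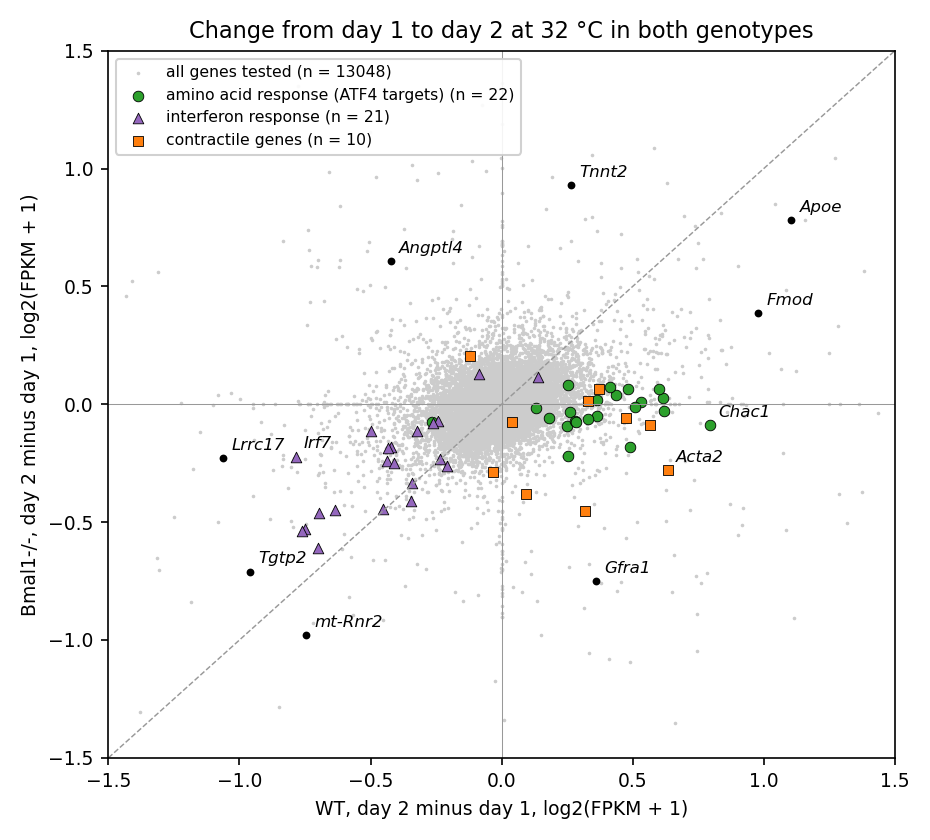
Change from day 1 to day 2 at 32 °C of each tested gene in WT (x axis) and Bmal1-/- (y axis), both on the log2(FPKM + 1) scale, with genes of the amino acid response, interferon response and contractile lists marked; the dashed line marks equal change, and 28 genes lie beyond the axes. The amino acid response genes lie to the right along the zero line of Bmal1-/-, and the interferon genes lie mostly in the lower left.

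Genes of the amino acid response rose in WT and, as a list, did not in Bmal1-/-. ATF4 is a transcription factor whose translation increases when amino acids run short or protein folding is disturbed. It drives genes for amino acid synthesis and transport, tRNA charging and feedback on the response itself. Of 23 listed genes 22 were tested. In WT 20 rose between the days, where 16.7% of all tested genes passed in that direction, and 1 fell; the median change of the list was 0.36. In Bmal1-/- only Slc3a2 rose (11% of all tested genes) while Asns and Psat1 fell (9.49%, so near the background). The median there was -0.03. The genotype difference itself passed for 21 of the 22, with the change more negative in Bmal1-/- for 20 of them (7.4% of all tested genes) and a median difference of -0.40.

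Chac1 (chromosome 2, 119351229 to 119354381, GRCm38), which encodes an enzyme that degrades glutathione and is among the most inducible ATF4 targets, moved most. In WT it ranged from 3.25 to 6.83 FPKM on day 1 with a median of 4.64, and from 7.12 to 11.6 on day 2 with a median of 8.35. The WT days did not overlap, and all 12 pairs were higher on day 2 (log2 change 0.79, SE 0.060, limma adjusted p = 2.46e-10). The Bmal1-/- libraries ranged from 3.63 to 6.94 FPKM with a median of 5.02 on day 1, and from 3.86 to 5.21 with a median of 4.61 on day 2, and 5 of 12 pairs were higher (log2 change -0.09, limma adjusted p = 0.328). The genotypes thus overlapped on day 1 and were apart on day 2. The difference in change was -0.88 (95% interval -1.06 to -0.71, limma adjusted p = 8.78e-08).

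Promoters of the 3 ATF4 list members that changed most in WT and hold the searched motif are printed to show where it lies. The motif was the composite C/EBP-ATF element TGATGNAA, searched on both strands in the 250 bases before the RefSeq start. It occurred in 6 of the 19 list members with a promoter entry (Asns, Chac1, Aars, Gars, Nupr1 and Vldlr), in 3.45% of all 32851 promoter windows and in 2.28% of tested genes with a window. The sequences read 5′ to 3′ along the gene, with the match in capitals. The matches in Chac1 and Nupr1 read on the strand opposite to the gene and so appear as the reverse complement. They are from RefSeq GRCm38.p6, at chr2:119350992-119351241 on the plus strand for Chac1, chr6:7693210-7693459 on the minus strand for Asns and chr7:126625471-126625720 on the minus strand for Nupr1.
Chac1: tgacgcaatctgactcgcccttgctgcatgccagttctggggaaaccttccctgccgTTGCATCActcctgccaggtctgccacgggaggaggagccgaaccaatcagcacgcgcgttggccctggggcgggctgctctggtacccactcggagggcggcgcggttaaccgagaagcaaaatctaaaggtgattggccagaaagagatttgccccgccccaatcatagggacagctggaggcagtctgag
Asns: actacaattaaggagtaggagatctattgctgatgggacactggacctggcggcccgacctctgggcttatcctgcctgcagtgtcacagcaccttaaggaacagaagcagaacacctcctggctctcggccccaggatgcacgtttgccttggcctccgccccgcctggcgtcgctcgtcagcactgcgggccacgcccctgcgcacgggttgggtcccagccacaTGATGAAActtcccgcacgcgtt
Nupr1: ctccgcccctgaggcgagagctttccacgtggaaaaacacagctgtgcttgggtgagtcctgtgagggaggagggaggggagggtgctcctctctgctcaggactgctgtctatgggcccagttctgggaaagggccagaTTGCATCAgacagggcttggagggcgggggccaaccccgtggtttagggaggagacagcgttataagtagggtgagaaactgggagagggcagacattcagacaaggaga
The match begins 193 bases before the RefSeq start in Chac1, 23 in Asns and 110 in Nupr1. The gene coordinates given in this text come from another annotation, by which the match in Asns lies inside the gene. A match describes letters only.

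Among the enzymes of amino acid synthesis, Asns (asparagine synthetase; chromosome 6, 7675169 to 7693254) ranged in WT from 45.7 to 70.5 FPKM with a median of 58.7 on day 1, and from 56.6 to 99.7 with a median of 79.8 on day 2. In Bmal1-/- its median went the other way, from 66.8 FPKM (57.2 to 88.4) to 61.6 (51.6 to 72.3). Both changes passed (log2 0.49, limma adjusted p = 1.75e-06, and -0.18, adjusted p = 0.0453). The serine pathway showed the same split between genotypes. Psph, the last enzyme of serine synthesis, rose in WT from a median of 21 to 34.97 FPKM (log2 0.62, SE 0.109, 12 of 12 pairs) and stood at medians of 13.8 and 14.4 in Bmal1-/-. Psat1, the enzyme before it, rose by 0.25 in WT and fell by 0.22 in Bmal1-/-. Shmt2 and Mthfd2, mitochondrial enzymes that use serine as a source of carbon for folate metabolism, rose in WT by 0.53 and 0.51, against 0.01 and -0.01 in Bmal1-/-.

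The transporters and tRNA synthetases of the list changed less. The cationic amino acid carrier Slc7a1 rose in WT from a median of 7.04 to 10.7 FPKM (log2 0.60), and Slc7a5 and Slc3a2, partners in the large neutral amino acid exchanger, by 0.48 and 0.25. Slc3a2 was the single member that also rose in Bmal1-/-, by 0.08. Of the synthetases, Aars, Gars, Sars and Cars rose in WT by 0.18 to 0.33, and Wars, at 0.13, missed the threshold.

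Among the regulators, Atf4 itself ranged in WT from 115.9 to 177.9 FPKM with a median of 149.1 on day 1, and from 171.6 to 215.2 with a median of 190.2 on day 2. The Bmal1-/- level stayed between 139.9 and 174.5 FPKM on day 1 and between 140.2 and 159.3 on day 2. Its change was 0.36 in WT (limma adjusted p = 3.33e-08) and -0.05 in Bmal1-/- (adjusted p = 0.374). Trib3, a pseudokinase that feeds back on ATF4, rose in WT from a median of 13.2 to 20.7 FPKM and had medians of 14.7 and 15.2 in Bmal1-/-. Ddit3, the pro-apoptotic partner CHOP, rose by 0.25 in WT, although it was already higher in Bmal1-/- (mean 107.2 FPKM on day 1, against 48.3 in WT). Vldlr, a lipoprotein receptor, was the member that fell in WT, by 0.26.

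**Figure D2:**
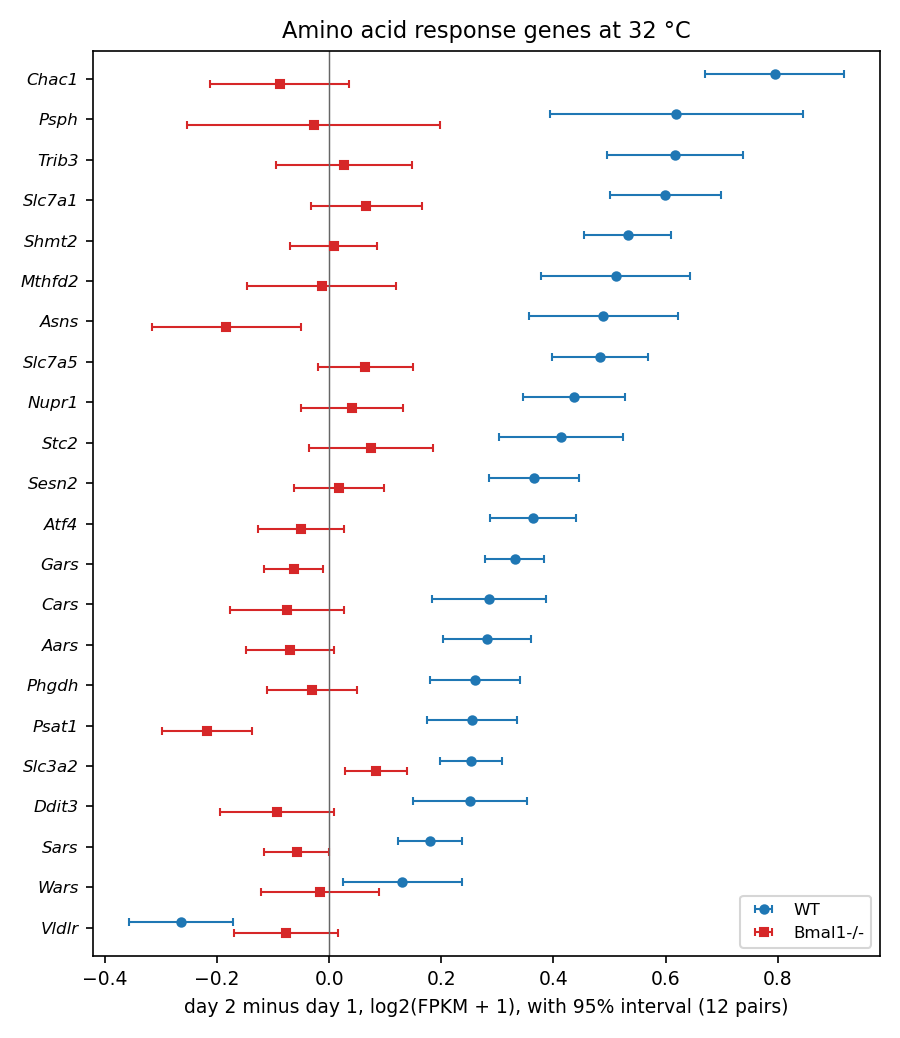
Change from day 1 to day 2 at 32 °C (x axis, log2(FPKM + 1), with 95% interval over 12 pairs) of the 22 tested amino acid response genes, a row per gene, in WT (circles) and Bmal1-/- (squares). WT values run from -0.26 for Vldlr to 0.79 for Chac1, and Bmal1-/- values lie near 0.

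Fgf21 and Cth, outside that list and known to respond to the same pathway, were called by size. Fgf21, a secreted stress hormone, ranged in WT from 2.16 to 5.59 FPKM on day 1 (median 3.49) and from 5.42 to 9.06 on day 2 (median 7.03; log2 change 0.86, 12 of 12 pairs). Bmal1-/- libraries lay under 0.51 FPKM throughout, so the test of the genotype difference (-0.89) compares a change with a gene barely detected. Cth, which makes cysteine, rose in WT from a mean of 9.18 to 13.1 FPKM and fell in Bmal1-/- from 1.63 to 1.14. Genes of the unfolded protein response, in which ATF4 also acts, rose in part in both genotypes: of 18, 13 rose and none fell in WT, with a median of 0.14 (Hspa5, the main chaperone of the endoplasmic reticulum, 0.36), and 6 rose and none fell in Bmal1-/-, with a median of 0.03. The shares of all tested genes that rose were 16.7% and 11%.

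Interferon response genes fell in both genotypes. Type I interferon signals through STAT proteins and IRF9 to induce antiviral effectors, and IRF7 sustains the response. Of 22 listed genes 21 were tested. In WT 19 fell (17.2% of all tested genes passed in that direction) and Ifit2 rose, with a list median of -0.42. In Bmal1-/- 15 fell (9.49% of all tested genes) and Ifit2 and Ifi27 rose (11%, so near the background), with a median of -0.24. The difference between genotypes passed for 5 members, Irf7, Stat2, Ddx58 and Ifi27 among them, all with a less negative or more positive change in Bmal1-/- (8.48% of all tested genes passed in that direction), and none was called by size.

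Promoters of the 3 interferon list members that changed most in WT and hold the motif are shown. The motif was GAAA, any 2 bases and GAAA again, the core of the interferon-stimulated response element, searched in the same way. It was present in 8 of the 16 members with a promoter entry (Ifit1, Ifit3, Isg15, Stat2, Oas1a, Rsad2, Bst2 and Cxcl10), in 2.98% of all windows and in 3.16% of tested genes with a window. Matches are in capitals, and those in Ifit1 and Rsad2 read on the strand opposite to the gene. The coordinates are chr4:156200819-156201068 on the minus strand for Isg15, chr19:34640639-34640888 on the plus strand for Ifit1 and chr12:26456453-26456702 on the minus strand for Rsad2.
Isg15: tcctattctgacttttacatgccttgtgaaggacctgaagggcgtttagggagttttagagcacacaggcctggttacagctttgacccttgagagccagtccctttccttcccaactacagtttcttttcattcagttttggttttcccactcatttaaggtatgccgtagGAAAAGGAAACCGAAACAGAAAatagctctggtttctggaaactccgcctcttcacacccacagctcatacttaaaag
Ifit1: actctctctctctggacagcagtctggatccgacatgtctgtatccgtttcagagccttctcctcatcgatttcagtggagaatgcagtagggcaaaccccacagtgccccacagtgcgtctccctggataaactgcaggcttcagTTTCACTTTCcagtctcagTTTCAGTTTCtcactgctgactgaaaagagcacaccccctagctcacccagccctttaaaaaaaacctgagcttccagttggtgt
Rsad2: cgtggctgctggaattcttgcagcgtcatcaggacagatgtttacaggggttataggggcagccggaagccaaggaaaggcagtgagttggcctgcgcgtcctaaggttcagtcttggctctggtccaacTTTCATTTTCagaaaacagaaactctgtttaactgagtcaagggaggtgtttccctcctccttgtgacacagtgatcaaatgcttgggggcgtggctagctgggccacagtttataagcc
Isg15 holds 3 overlapping matches, the first beginning 78 bases before the start, Ifit1 holds 2 separate ones and Rsad2 holds 1.

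Among the transcription factors of the response, Irf7 and Stat2 differed between genotypes. Irf7 (chromosome 7, 141262706 to 141266481) ranged in WT from 58.1 to 111.9 FPKM with a median of 83.2 on day 1, and from 31.4 to 75.6 with a median of 49.6 on day 2, lower in all 12 pairs (log2 change -0.79, SE 0.072, limma adjusted p = 6.03e-09). In Bmal1-/- it started far lower, from 15.8 to 24.98 FPKM with a median of 18.9, and went to 12.4 to 20.9 with a median of 16.2 (log2 change -0.22, adjusted p = 0.0309). Averaged over the first and the last 3 time points, the WT level went from 105.3 to 40.9 FPKM. Stat2 fell in WT from a median of 55.4 to 45.7 FPKM, in 12 of 12 pairs. In Bmal1-/- its medians were 30.8 and 28.6 (log2 change -0.07, adjusted p = 0.260).

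The antiviral effectors fell in both. Ifit1, which binds foreign RNA, went from a median of 22.3 FPKM (15.4 to 31.5) to 13.1 (8.71 to 23.1) in WT. The Bmal1-/- median went from 16.6 (12.2 to 21.3) to 9.88 (6.53 to 16.8). No pair was higher on day 2 in either genotype, although the days overlapped, and the difference of the log2 changes (-0.70 and -0.61) was 0.09 with an interval of -0.19 to 0.37. Isg15, a ubiquitin-like modifier, fell from a median of 58.0 to 29.5 FPKM in WT and from 44.6 to 27.97 in Bmal1-/-. Rsad2, the antiviral enzyme viperin, fell by 0.63 and 0.45. Among genes outside the list, the interferon-inducible GTPases Gbp3 and Gbp9 fell in WT by 0.95 and 0.92, and Tgtp2 fell by 0.96 in WT and 0.71 in Bmal1-/-. Gbp9 changed by -0.08 in Bmal1-/-, and the genotype difference of 0.84 passed (limma adjusted p = 5.86e-06). Guanylate-binding proteins, Tgtp2 and Ifit3b have near-identical neighbours, and no source used here says how reads shared between copies were counted. The summed level of 10 macrophage and leukocyte markers also fell in WT, from 22.2 ± 2.87 to 18.9 ± 1.44 FPKM (SD, n = 12, exact adjusted p = 0.00977), while in Bmal1-/- it was 13.2 ± 1.12 and 12.6 ± 0.43. Only 3 of the 10 were tested singly, and 1 of them fell in each genotype (17.2% and 9.49% of all tested genes). Their median change was -0.04 in WT and 0.01 in Bmal1-/-. The macrophage marker Adgre1 was at 0 in all 48 libraries, and the part of these cells in the interferon result was not tested. In bulk RNA, fewer cells of a type and less RNA per cell cannot be told apart.

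**Figure D3:**
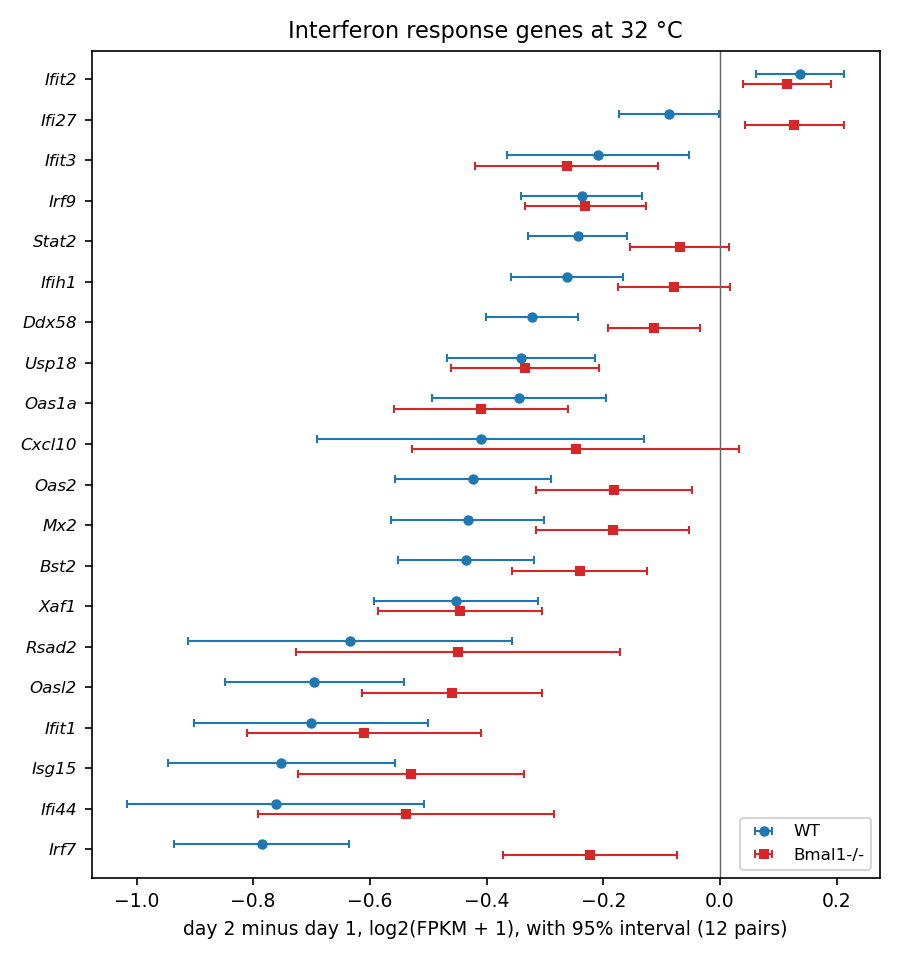
Change from day 1 to day 2 at 32 °C (x axis, log2(FPKM + 1), with 95% interval over 12 pairs) of 20 of the 21 tested interferon response genes, a row per gene, in WT (circles) and Bmal1-/- (squares). Both genotypes lie left of 0 for most genes, and Irf7 shows the largest gap between them.

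Contractile genes diverged. These encode the smooth muscle type actin and myosin machinery of activated fibroblasts (myofibroblasts). Of 13 listed genes 10 were tested; in WT 6 rose (16.7% of all tested genes) and Smtn fell (17.2%), with a list median of 0.32, and in Bmal1-/- 1 rose (11%, so near the background) and 4 fell (9.49%), with a median of -0.08. The difference was more negative in Bmal1-/- for 8 of the 10 (7.4% of all tested genes) and was called for Acta2, Myl9 and Tagln. Acta2, smooth muscle actin (chromosome 19, 34241090 to 34255590), ranged in WT from 103.9 to 206.8 FPKM with a median of 137.4 on day 1, and from 163.5 to 309.1 with a median of 201.6 on day 2. In Bmal1-/- it ranged from 139.4 to 254.1 with a median of 162.3, and then from 120.0 to 152.1 with a median of 136.6. The WT libraries were higher on day 2 in 10 of 12 pairs and the Bmal1-/- libraries in 1, with overlap in both. The changes of 0.63 and -0.28 differed by -0.92 (95% interval -1.17 to -0.66, limma adjusted p = 1.14e-05). The highest Bmal1-/- library was the first time point, and without its pair the difference was -0.86. Tagln, an actin-binding protein, rose by 0.32 in WT and fell by 0.45 in Bmal1-/-. Myl9, the regulatory myosin light chain, rose in WT from a median of 110.2 to 164.8 FPKM and had medians of 46.04 and 41.4 in Bmal1-/-.

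Targets of YAP and SRF, which report tension on the actin skeleton, rose in WT for 10 of 13 genes (16.7% of all tested genes) with none falling (median 0.25). In Bmal1-/- 6 rose (11%) and 1 fell (9.49%, so near the background), with a median of 0.10. Ccn1 and Ccn2, secreted matricellular proteins, were the members called in WT. Ccn2 rose from a median of 10.7 to 20.7 FPKM and Ccn1 from 43.9 to 68.9. In Bmal1-/- Ccn2 was far lower, at medians of 1.67 and 1.66, and Ccn1 rose by 0.24.

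Several matrix genes rose in both genotypes. Of 29 listed genes 28 were tested; 16 rose and 3 fell in WT (median 0.10), where 16.7% and 17.2% of all tested genes did. In Bmal1-/- 9 rose and 3 fell (median 0.07), where 11% and 9.49% did, so the falls there were near the background. Fmod, the proteoglycan fibromodulin (chromosome 1, 134037254 to 134048277), climbed through both days. In WT it ranged from 38.3 to 84.0 FPKM with a median of 61.7 on day 1, and from 83.9 to 142.1 with a median of 113.6 on day 2. The level in Bmal1-/- ranged from 183.5 to 231.5 with a median of 203.4, and from 244.6 to 290.2 with a median of 269.3 without overlap. The log2 changes were 0.98 (SE 0.038, limma adjusted p = 2.61e-15) and 0.39 (adjusted p = 1.24e-07). Col12a1, a fibril-associated collagen, rose by 0.83 and 0.36, and Thbs1, a secreted regulator of adhesion and TGF-beta, by 0.67 and 0.37. Tnc, tenascin C, rose in WT by 0.44 and changed by -0.18 in Bmal1-/- (adjusted p = 0.221), a called difference. The fibrillar collagens Col1a1 and Col1a2 rose by 0.08 to 0.14 in both.

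**Figure D4:**
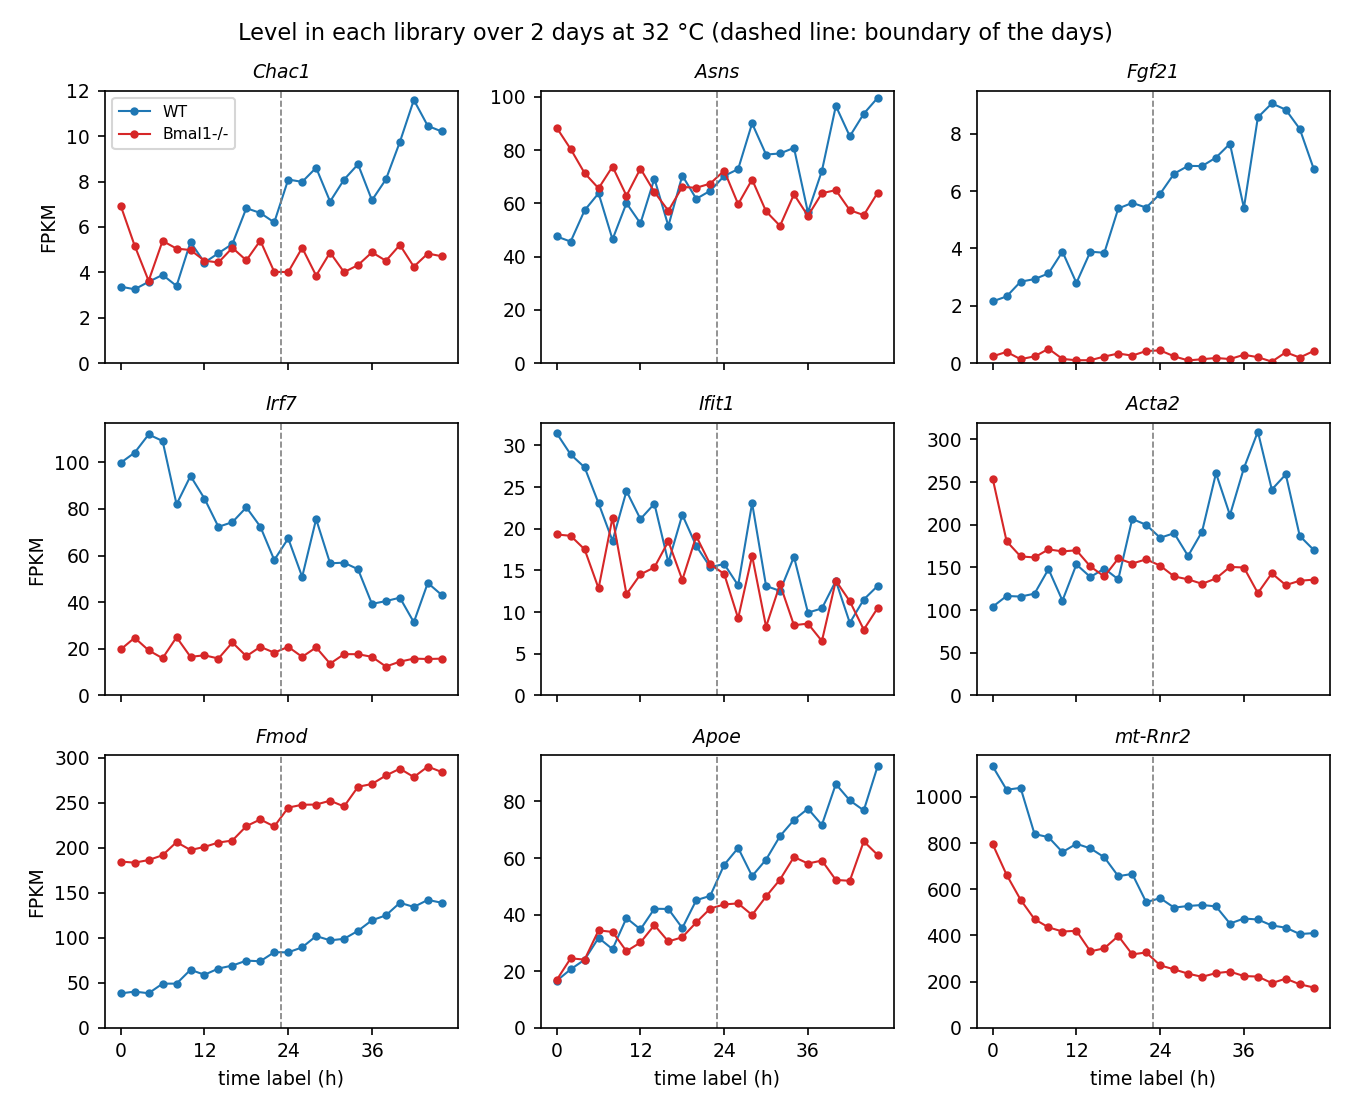
Level (y axis, FPKM, from 0) of 9 genes in each of the 48 libraries at 32 °C against the time label in hours, WT in blue and Bmal1-/- in red, with the boundary of the days dashed. Chac1, Fgf21 and Fmod climb in WT throughout, Irf7 and Ifit1 decline, Acta2 moves apart between genotypes, Apoe climbs in both and mt-Rnr2 declines in both.

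Some called changes were shared between the genotypes. Apoe, a lipid carrier and target of the sterol sensor LXR (chromosome 7, 19696109 to 19699188), ranged in WT from 16.6 to 46.6 FPKM with a median of 35.0 on day 1, and from 53.6 to 92.5 with a median of 72.6 on day 2. In Bmal1-/- it ranged from 16.9 to 42.2 with a median of 31.3, and from 39.9 to 65.9 with a median of 52.3. All 12 pairs were higher in both genotypes (log2 1.11, limma adjusted p = 5.04e-11, and 0.78, adjusted p = 1.01e-07), and the rise was smaller in Bmal1-/- by 0.33 (adjusted p = 0.0411). Itga8, an integrin subunit, was the other gene called higher in both, by 0.77 and 0.62. The 4 genes called lower in both were Tgtp2, Ifit1, C1qtnf3 and mt-Rnr2. Saa3, an acute-phase protein, rose by 0.74 in WT and 0.58 in Bmal1-/-.

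The mitochondrial ribosomal RNAs fell in both, in libraries that were poly(A) selected. How far that selection set their values was not tested. In WT mt-Rnr2 (mitochondrial genome, 1094 to 2675) ranged from 544.2 to 1133 FPKM with a median of 787 on day 1, and from 406.2 to 561.5 with a median of 471.2 on day 2. Values in Bmal1-/- ranged from 318.1 to 795.2 with a median of 418.6, and from 174.6 to 270.5 with a median of 223.1. The log2 changes were -0.75 and -0.98, and mt-Rnr1 fell by 0.52 and 0.45. Of the 7 other genes of that genome that were tested, mt-Nd1 and mt-Cytb passed in WT and mt-Nd1, mt-Co1 and mt-Cytb in Bmal1-/-, all lower and at most 0.29 in size.

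Cytosolic ribosomal protein genes fell slightly in WT: 17 of 24 fell (17.2% of all tested genes) and 1 rose, with a median of -0.09. In Bmal1-/- 7 fell (9.49%) and 1 rose, with a median of -0.06. Genes of ribosome biogenesis moved the other way in WT, where 13 of 17 rose (16.7% of all tested genes) and Fbl fell (median 0.18; Odc1, the first enzyme of polyamine synthesis, 0.53). In Bmal1-/- 4 rose (11%) and Ncl and Npm1 fell (9.49%, so near the background), with a median of 0.08.

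Genes of the glucocorticoid response rose more often than they fell. In WT 11 of 18 rose (16.7% of all tested genes) and 3 fell (median 0.18), the falls near the background of 17.2%. In Bmal1-/- 8 rose (11%) and none fell (9.49%), with a median of 0.11. Hsd11b1, the enzyme that regenerates active glucocorticoid inside cells, ranged in WT from 2.77 to 10.1 FPKM on day 1 (median 6.40) and from 5.96 to 22.1 on day 2 (median 12.7), higher in 12 of 12 pairs (log2 1.02, limma adjusted p = 3.13e-08). In Bmal1-/- its medians were 7.74 and 9.48 (log2 0.22, adjusted p = 0.149). The classic targets Tsc22d3 and Dusp1 rose in both genotypes, by 0.38 and 0.33 in WT and by 0.10 and 0.18 in Bmal1-/-.

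Further WT rises were among secreted factors and enzymes. Mmp3, the protease stromelysin, rose from a median of 772 FPKM (485 to 1187) to 1354 (939 to 1561), with medians of 19.5 and 19.6 in Bmal1-/-. Gpx3, a secreted glutathione peroxidase, rose from a median of 598 to 1114 FPKM (log2 0.86) and in Bmal1-/- from 92.3 to 104.2 (0.17). Fgf18 rose from 7.92 to 15.7 FPKM without overlap in WT and by 0.49 in Bmal1-/-. Edn1 (endothelin) and Adm (adrenomedullin), vasoactive peptides, rose in WT by 0.84 and 0.61. Gata3, a transcription factor, rose from a median of 1.02 to 3.73 FPKM in 11 of 12 pairs, and Fos, an immediate early transcription factor, from 1.91 to 3.40. Cdo1, which oxidises cysteine, and Wfdc17 and Cadm2 rose in WT by 0.83, 0.92 and 0.79, and had medians under 0.15 FPKM in Bmal1-/- on both days.

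In the IGF system 2 of 10 tested genes rose and 5 fell in WT, and 5 rose and 1 fell in Bmal1-/-. Against 16.7% and 17.2% of all tested genes in WT and 11% and 9.49% in Bmal1-/-, the rises in WT and the fall in Bmal1-/- were near the background. Pappa, a protease that frees IGF from its binding proteins, rose in WT from a median of 1.34 FPKM (0.79 to 2.30) to 3.36 (2.45 to 4.44) without overlap, and was near 0 in Bmal1-/-. Igfbp3 rose from 123.0 to 182.7 FPKM in WT and from 11.8 to 15.0 in Bmal1-/-. Igfbp4, Igfbp5 and Igfbp6 fell in WT by 0.51, 0.39 and 0.27. In Bmal1-/- Igfbp6 rose by 0.10, while Igfbp4 and Igfbp5, at 0.03 and 0.06, did not pass. Igf1 fell by 0.36 in WT and 0.26 in Bmal1-/-.

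The largest WT fall of a named gene was Lrrc17, a secreted leucine-rich repeat protein. It went from a median of 28.6 FPKM (20.8 to 40.7) to 12.8 (10.0 to 19.1) without overlap, and from 14.02 to 11.8 in Bmal1-/-. The sphingosine-1-phosphate receptor S1pr1 went from a median of 6.62 to 2.89 FPKM in WT and was at or under 0.048 in Bmal1-/-. Plac8 fell from a median of 729 to 443 FPKM (log2 -0.81) and in Bmal1-/- from 610 to 505 (-0.27). Il1rn, the antagonist of the interleukin-1 receptor, fell by 0.78 in WT, from a median of 91.1 to 50.3 FPKM, and Csrp2, a cytoskeletal LIM protein, by 0.79. S100a4, one of the fibroblast markers, fell by 0.51 in WT and changed by 0.08 in Bmal1-/-.

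Of the 8 coding genes called higher in Bmal1-/-, Tnnt2, C7 and Hmcn1 were low in WT. Tnnt2, cardiac troponin T, rose in Bmal1-/- from a median of 15.7 to 33.4 FPKM (log2 0.93), and in WT from 0.32 to 0.57. The complement components C3 and C7 rose by 0.66 and 0.69 in Bmal1-/-, C3 from a median of 569 to 923 FPKM without overlap, and by 0.22 and 0.27 in WT. Hmcn1, a basement membrane protein, rose in Bmal1-/- from a median of 16.96 to 26.2 FPKM and had medians of 0.074 and 0.10 in WT.

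Angptl4 and Gfra1 moved in opposite directions. Angptl4, an inhibitor of lipoprotein lipase, rose in Bmal1-/- from a median of 5.94 FPKM (3.17 to 7.96) to 9.01 (7.04 to 11.96) and fell in WT from 2.48 (1.87 to 3.37) to 1.59 (0.99 to 2.37). The difference was 1.03 (95% interval 0.75 to 1.30, limma adjusted p = 5.86e-06). Gfra1, the receptor of the growth factor GDNF, fell in Bmal1-/- from 4.83 FPKM (3.95 to 7.25) to 2.72 (1.67 to 3.83) without overlap. In WT it rose from 75.8 (58.1 to 96.3) to 95.4 (84.9 to 107.6), a difference of -1.11 (-1.36 to -0.86, adjusted p = 4.56e-07). Lrp4, a receptor of the LDL receptor family, fell by 0.49 in WT and rose by 0.27 in Bmal1-/-. Id3, an inhibitor of helix-loop-helix factors, and Hk2, hexokinase, did the reverse: they rose by 0.48 and 0.33 in WT and fell by 0.15 and 0.31 in Bmal1-/-. The Wnt antagonist Sfrp1 rose by 0.53 in WT and changed by -0.12 in Bmal1-/- (adjusted p = 0.205). Other falls called in Bmal1-/- were C1qtnf3 (0.93) and Ltbp2 (0.66), which also fell in WT, and the retinol carrier Rbp4 (0.59), which WT expressed under 0.64 FPKM.

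Summed markers of some other cell types moved with the days. Those of keratinocytes, muscle, and cartilage and bone did not pass in either genotype (exact adjusted p from 0.0677 to 0.737). The summed level of 9 adipocyte markers rose in 12 of 12 pairs in both genotypes, from 63.0 ± 7.86 to 77.8 ± 5.92 FPKM in WT and from 73.1 ± 5.74 to 82.6 ± 7.25 in Bmal1-/- (SD, n = 12, exact adjusted p = 0.00391 in each). Lpl, lipoprotein lipase, rose by 0.72 and 0.30, and Pparg, the regulator of fat cell formation, changed by 0.01 in WT (adjusted p = 0.910) and fell by 0.26 in Bmal1-/-. The 4 tested members had medians of 0.14 and -0.02, with 2 rising in WT and 1 rising and 1 falling in Bmal1-/-. The other 5, with Adipoq and Plin1 among them, were under the 1 FPKM minimum. The sum of 9 melanocyte and Schwann cell markers rose in WT from 23.3 ± 3.35 to 30.1 ± 1.80 FPKM (exact adjusted p = 0.00391), in which Mlana went from a mean of 13.01 to 18.99 FPKM; Dct was at 0 in all libraries. It was 4.15 ± 0.51 and 4.38 ± 0.49 in Bmal1-/-, where Mlana was at or under 0.63. Endothelial markers summed to 2.42 ± 0.27 and 3.02 ± 0.46 FPKM in WT (exact adjusted p = 0.00938). In Bmal1-/- they summed to 2.43 ± 0.24 and 2.41 ± 0.28 FPKM (exact adjusted p = 0.848). Only 1 of the 8 endothelial markers reached a mean of 1 FPKM. It passed in neither genotype (log2 change 0.10 in WT and 0.06 in Bmal1-/-). The part of any such cells in the gene changes was not tested.

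The core clock genes that passed drifted little. None of the 23 tested was called in either genotype; in WT 7 rose and 3 fell (16.7% and 17.2% of all tested genes), and in Bmal1-/- 5 rose and none fell (11% and 9.49%). The count of falls in WT was near the background. Hlf, of the same list, had wide estimates that did not pass. They were -0.24 in WT and 0.45 in Bmal1-/- (SE 0.18, limma adjusted p = 0.337 and 0.0862), with a difference of 0.69 (adjusted p = 0.0715). In WT Arntl rose by 0.28 (median 5.71 to 6.66 FPKM), its repressor Nr1d1 by 0.13 and Nfil3, a repressor of D-box genes, by 0.21. The output activator Dbp fell by 0.23 (median 16.3 to 13.3 FPKM) and Per3 by 0.14. Cry1, Cry2 and Per1, members of the repressor arm, rose in both genotypes, by 0.09, 0.18 and 0.14 in WT and by 0.15, 0.12 and 0.21 in Bmal1-/-. Npas2, a partner of BMAL1 that can replace CLOCK, rose by 0.35 in Bmal1-/- and changed by 0.10 in WT (adjusted p = 0.208), and the difference of 0.26 passed (limma adjusted p = 0.0266). Differences also passed for Per3 (0.20), Arntl (-0.28) and Nfil3 (-0.24). Without the pairing the differences of Npas2 and Per3 (adjusted p = 0.0681 and 0.128) and the WT changes of Cry1, Nr1d1 and Per3 (adjusted p = 0.0550, 0.197 and 0.0832) did not pass. The WT change of Per1 did not pass in 8 of 12 fits that left out a pair, nor that of Nr1d1 in 6, and the difference of Npas2 did not pass with a pseudocount of 0.1 FPKM (adjusted p = 0.171).

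A rhythm that damps or shifts between days would make the day 2 minus day 1 difference follow the time of day. Such a dependence passed for 5 genes (0.0383%) in WT, with Thbd, Mical2, Csrp2 and Lpin1 among them, at adjusted p from 0.0214 to 0.0310 (limma F test). It passed for 0 genes (0.0%) in Bmal1-/-, where 1123 genes were under an unadjusted p of 0.05, against 1323 in WT. Thbd (thrombomodulin), and Csrp2 and Mical2, which bind or act on actin, differed with an amplitude of 0.24 to 0.33 on the log2 scale, largest rise between 13.6 and 16.8 h. When WT was fitted without Bmal1-/-, 0 genes passed. No core clock gene passed in WT; Arntl and Dbp had unadjusted p of 0.00143 and 0.00490 (adjusted p = 0.172 and 0.279).

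The drift at 32 °C was set against that at 37 and 27 °C, computed the same way in 1 fit of 13036 genes. Each temperature was 1 course per genotype, so a difference between temperatures cannot be told apart from a difference between courses. The libraries also differed: Gm26377 took at most 2.51% of the summed FPKM of a library at 27 and 37 °C, against 18.8 to 34.2% at 32 °C. Its part in the differences between temperatures was not tested. CT14 and CT38 at 27 °C were left out, since the CT14 libraries there go against their genotype labels in earlier results of these data. In WT the day change differed between 32 and 37 °C for 1081 genes (8.29%) and was called different for 61 (0.468%). Between 32 and 27 °C the WT counts were 3073 (23.6%) and 234 (1.8%), of which 175 (1.34%) were more positive at 32 °C. In Bmal1-/- the order of the passing counts was the other way round: 3125 genes (24%) against 37 °C and 1232 (9.45%) against 27 °C. The called counts there, 73 (0.56%) and 69 (0.529%), were close. Their ranges overlapped when each pair was left out (56 to 99 and 62 to 76). Whether this order differs between genotypes was not tested.

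The amino acid response rose at 32 °C and fell at 27 °C in WT. At 27 °C 20 of its 22 genes fell (14.5% of all tested genes) and none rose (median -0.41), and at 37 °C 5 rose (8.52% of all tested genes) and 1 fell (median 0.12). The test of the difference from 27 °C passed for all 22, of which 21 were more positive at 32 °C (11.3% of all tested genes) and 17 were called. Against 37 °C it passed for 5, all more positive at 32 °C (5.32% of all tested genes). In Bmal1-/- 18 fell and none rose at 27 °C (9.85% and 9.22% of all tested genes, median -0.27), and 1 rose and 5 fell at 37 °C (16.1% and 23.4% of all tested genes). There the difference from 27 °C passed for 11, all more positive at 32 °C (5.34% of all tested genes), and 2 were called (0.422% of all tested genes). For Chac1 the WT changes at 27, 32 and 37 °C were -0.39, 0.79 and 0.17, and 32 differed from 27 °C by 1.19 (limma adjusted p = 2.5e-05).

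The interferon decline was present at all 3 temperatures in WT. At 27 °C 19 of 22 genes fell (median -0.64), and at 37 °C 20 fell (median -0.43). At each of these temperatures 14.5% of all tested genes fell. The difference between 32 and 37 °C passed for 1 member, where 8.29% of all tested genes passed in either direction. That between 32 and 27 °C passed for 8, each a smaller fall at 32 °C (11.3% of all tested genes). In Bmal1-/- 12 fell at 27 °C and 15 at 37 °C (9.85% and 23.4% of all tested genes). The difference from 32 °C passed for none at 27 °C and for 2 at 37 °C. Of all tested genes 9.45% and 24% passed in either direction, so neither count was above the background. Contractile genes in WT differed by temperature: 6 of 10 fell at 27 °C and 1 rose (14.5% and 16.7% of all tested genes). Acta2 and Tagln changed by -0.57 and -0.90 there, and their differences from 32 °C, 1.21 and 1.22, were the largest on the positive side. Among matrix genes in Bmal1-/-, 23 of 28 rose at 37 °C and none fell (16.1% and 23.4% of all tested genes). At 32 °C 18 were less positive (9.16% of all tested genes).

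**Figure D5:**
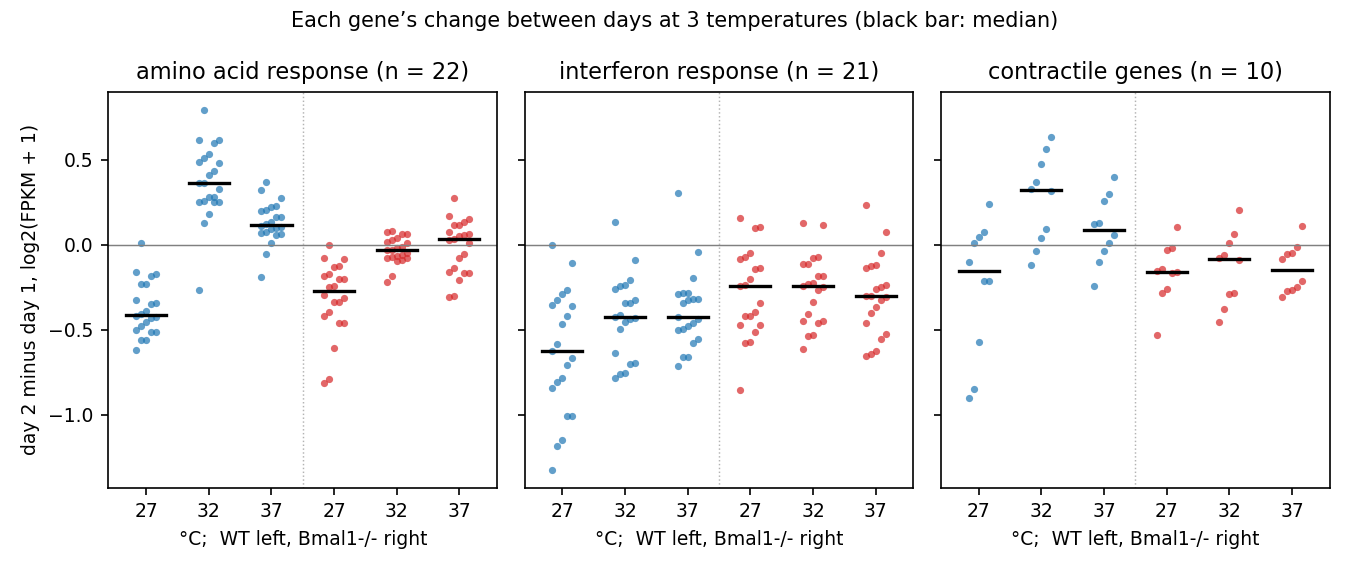
Change from day 1 to day 2 (y axis, log2(FPKM + 1)) of each gene of 3 lists, those tested at 32 °C, at 27, 32 and 37 °C, with WT at the left of each panel and Bmal1-/- at the right; each dot is a gene and the bar is the median. The amino acid response lies above 0 in WT at 32 °C and below it at 27 °C, and the interferon genes lie mostly below 0 in every course.

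Single genes differed between the courses of the temperatures. Mmp13, a collagenase, changed by 0.10 in WT at 32 °C and by -1.24 at 37 °C, the largest positive difference (1.34, limma adjusted p = 1.2e-15). Fap, a cell surface protease of activated fibroblasts, fell in WT at 32 and 37 °C by 0.58 and 0.52 and rose at 27 °C by 0.53. Scg2, a secretory granule protein, rose by 1.15 in WT and 1.09 in Bmal1-/- at 37 °C. At 32 °C it rose by 0.76 in WT and changed by 0.12 in Bmal1-/-. Aldh1a7, an aldehyde dehydrogenase, fell by 0.98 in both genotypes at 27 °C. At 32 °C it changed by 0.04 in WT, which did not pass, and rose by 0.20 in Bmal1-/-.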

How the data were processed

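RNA from dexamethasone-treated mouse skin fibroblasts was poly(A) selected and sequenced from a single end over 101 bases in stranded libraries, per the labels' protocols. Per the submitters' processing notes, the tools included Cuffdiff, TopHat and TopHat2 2.1.0, and the build was GRCm38. Not given in the sources used here: their settings, their gene models and any scaling of libraries. The deposited values are FPKM, computed by the authors. Read counts were not used here; depth was estimated from the step that 1 read gives in FPKM (97.4% of low values of 1357 genes lay within 0.15 of a whole read), so no counting intervals are given. Symbols and coordinates came from a GRCm38 annotation, which matched 47217 of 47631 gene IDs.

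Values were taken as log2(FPKM + 1). Genes averaging 1 FPKM or more across a fit's libraries were tested, two-sided, with limma 3.58.1 (R 4.3.3; lmFit, eBayes with trend), with course and time-of-day label as a block and Benjamini-Hochberg adjustment over all genes tested. The pairing comes from time labels 24 h apart, not from replicate numbers. Summed or single technical values were tested with exact sign-flip permutation tests over 12 pairs, adjusted over 24 tests. Time-of-day dependence was a moderated F test of cosine and sine terms on the 24 differences. The tests were checked on simulated data.

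The members and the 39 gene lists were chosen with earlier results of these data known. Named are the 12 largest rises and falls per comparison among called coding or lncRNA genes without clone names, all core clock genes, up to 4 called members per list, the largest differences by temperature (up to 6 per side) and the 10 smallest p of the time-of-day test; other list members are given as examples chosen after their values were seen. Results on some named genes are not reported here. Promoters are from RefSeq (GRCm38.p6). Alternatives were another pseudocount, filter, fold limit and scaling, no pairing, a slope per day, separate fits and leaving out each pair.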

Additional observations from a re-analysis of the deposited data

Results flagged for a closer look

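The values here were marked because the day change differed between 2 groups by limma's test of the difference itself. Groups of 12 libraries are too large for the check on single outlying samples that was used here.

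Between genotypes the change at 32 °C was called different for 87 genes. At adjusted p alone it was more negative in Bmal1-/- for 20 amino acid response genes and 8 contractile genes. On the log2(FPKM + 1) scale, Bmal1-/- minus WT, the named genes with a more positive change in Bmal1-/- were Angptl4 (1.03), S1pr1 (0.93), Klhl13 (0.90), Gbp9 (0.84), Lrrc17 (0.83), Mbnl3 (0.83), Lrp4 (0.77), Rdm1 (0.76), Plagl1 (0.74), Lsm5 (0.72) and S100a4 (0.59). Those with a more negative change were Gfra1 (-1.11), Wfdc17 (-0.97), Acta2 (-0.92), Fgf21 (-0.89), Chac1 (-0.88), Pappa (-0.85), Cdo1 (-0.82), Hsd11b1 (-0.80), Cadm2 (-0.78), Mmp3 (-0.78), Tagln (-0.77), Cth (-0.77), Ccn2 (-0.72), Gpx3 (-0.68), Asns (-0.67), Psph (-0.65), Myl9 (-0.65), Sfrp1 (-0.65), Hk2 (-0.64), Id3 (-0.62), Mlana (-0.62), Tnc (-0.61), Fmod (-0.59) and Trib3 (-0.59). S1pr1, Pappa, Cdo1, Cadm2, Fgf21, Wfdc17 and Mlana were near 0 in one of the genotypes.

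Between temperatures, 32 minus 37 °C was called different for 61 genes in WT and 73 in Bmal1-/-, and 32 minus 27 °C for 234 and 69. In WT the named differences from 37 °C were Mmp13 (1.34), Mlana (1.13), Saa3 (1.13), Angptl4 (-0.87), Rpl38 (-0.82) and Fbl (-0.75). In Bmal1-/- they were Mamdc4 (1.48), Ran (0.90), Tpt1 (0.88), Zbed6 (-1.13), Scg2 (-0.98) and Slc16a4 (-0.81). Differences from 27 °C in WT were Tagln (1.22), Acta2 (1.21), Cdo1 (1.19), Fap (-1.11), Plagl1 (-0.93) and Plxnd1 (-0.87). In Bmal1-/- they were Aldh1a7 (1.17), Ccn3 (0.96), Aldh3a1 (0.94), Plppr3 (-0.96), C1qtnf3 (-0.83) and Prtn3 (-0.69).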

How the results depend on the processing

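Among genes named by the rule, no change that passed in the main fit reversed its sign under any setting, in the comparison that named it. Clock values that missed the threshold and other list members given as examples were not part of this check. The amplitudes of the time-of-day test carry no sign. In the order WT, Bmal1-/- and their difference at 32 °C, called genes numbered 130, 24 and 87. They numbered 238, 64 and 167 with a pseudocount of 0.1 FPKM, 4413, 2668 and 2072 with no fold limit, and 14, 5 and 7 with a 2-fold limit. With a mean of at least 5 FPKM the difference had 57. For 32 minus 37 °C, WT (61) had 95, 36, 1081 and 6 with that pseudocount, that minimum, no fold limit and the 2-fold limit, and Bmal1-/- (73) had 182, 45, 3125 and 18. For 32 minus 27 °C, WT (234) had 397, 143, 3073 and 33 in the same order. Bmal1-/- (69) had 145 with that pseudocount, 1232 with no fold limit and 8 with the 2-fold limit. The minimum of 5 FPKM left the Bmal1-/- count within 1.5 times of 69. Median-of-ratios scaling split the Bmal1-/- calls against 37 °C into 31 higher and 51 lower, from 35 and 38. Keeping CT14 and CT38 at 27 °C split the WT calls against 27 °C into 149 and 102, from 175 and 59. The time-of-day test passed for 10 genes in WT and 3 in Bmal1-/- with no minimum, and for 0 in WT fitted alone.

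Without the pairing (no replicate block) the called counts at 32 °C were 128, 24 and 86, and 59, 70, 231 and 64 between temperatures. Of the clock values, Cry1, Nr1d1 and Per3 in WT, Clock in Bmal1-/- and the differences of Npas2 and Per3 no longer passed.

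Leaving out each pair in turn gave 119 to 141 called genes in WT, 18 to 30 in Bmal1-/- and 72 to 105 for their difference. Against 37 °C it gave 52 to 70 and 56 to 99, and against 27 °C 214 to 268 and 62 to 76. The time-of-day test gave 0 to 8 genes in WT and 0 to 2 in Bmal1-/-. The amino acid response count was 20 to 21 in WT and 20 to 20 for the difference, the interferon count 17 to 19 in WT and 11 to 14 in Bmal1-/-, and the contractile count 7 to 9. The differences of Plagl1 and Npas2 did not pass with the smaller pseudocount (adjusted p = 0.312 and 0.171). FPKM without counts gives no counting error for low genes.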

Other observations

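Other gene lists at 32 °C are given here as genes that passed between the days and list medians on the log2(FPKM + 1) scale. Of all tested genes 16.7% rose and 17.2% fell in WT, and 11% and 9.49% in Bmal1-/-. Of 25 genes of mitosis and DNA replication, 5 fell and none rose in WT (median -0.07), and 2 fell in Bmal1-/- (median -0.08). Both counts of falls were near the background. Of 3 tested replication-dependent histone genes, 2 rose in each genotype (medians 0.46 and 0.56). How far poly(A) selection set the histone values was not tested. Immediate early genes rose in WT for 9 of 15 with 2 falling (median 0.16), and in Bmal1-/- none rose and 2 fell (median 0.02). FOXO targets rose for 11 of 20 and fell for 4 in WT (median 0.10), and rose for 5 and fell for 4 in Bmal1-/- (median 0.06). The falls of immediate early genes in both genotypes and of FOXO targets in WT were near the background.

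Of 23 genes of hypoxia and glycolysis, 4 rose and 9 fell in WT, and 6 rose and 3 fell in Bmal1-/-. Of 15 p53 targets, 7 rose and 3 fell in WT, and none rose and 1 fell in Bmal1-/-. Cholesterol synthesis genes rose for 4 of 24 and fell for 1 in WT, and rose for 2 and fell for 3 in Bmal1-/-. Among 6 cold-inducible genes, 2 rose and 3 fell in WT, and 1 fell in Bmal1-/-. The shares of all tested genes to read these counts against were 16.7% higher and 17.2% lower in WT, and 11% and 9.49% in Bmal1-/-.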
